A study of Homo sapiens with 4 samples.

Results

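The 10 genes examined here encode enzymes that make fatty acids, lengthen them, add double bonds to them or pass them on to glycerolipids. They are ACLY, ACSS2, ACACA, FASN, ELOVL5, ELOVL6, SCD, FADS1, FADS2 and LPIN1. All gene probes that carry these names on the array were used, which gave 13 probes for 10 of the 27274 gene names on the array. ACACA, ELOVL6 and LPIN1 had 2 probes each and the other 7 genes had 1, and each of these probes was a single spot.

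Gene expression had been measured on 1-colour Agilent arrays to compare how LNCaP and PC3 cells respond to atorvastatin (ATO), a statin, a drug that blocks the synthesis of mevalonate and so of cholesterol. LNCaP is a human prostate cancer cell line that responds to androgen, and PC3 is a human prostate cancer cell line that does not. Each line had a control and an ATO group, 4 groups in all, where control cells were untreated (the labels name no vehicle) and ATO cells were exposed to 10 µM for 24 h, all in serum-containing RPMI medium. With 1 array in each group, the differences below could not be checked against replicates, and precision is limited by how few arrays there are.

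Cells make fatty acids from acetyl-CoA. ACLY forms it from citrate and ACSS2 from acetate, ACACA carboxylates it to malonyl-CoA, and FASN joins these units into palmitate. Elongases of the ELOVL family lengthen the chain, SCD turns saturated into monounsaturated fatty acids, FADS1 and FADS2 desaturate polyunsaturated ones, and LPIN1 makes diacylglycerol from phosphatidate. Many of these genes are known targets of the SREBP transcription factors (genes SREBF1 and SREBF2), which INSIG and SCAP proteins hold in the endoplasmic reticulum while sterols are plentiful, and lipogenesis is known to be high in prostate cancer cells.

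Promoter sequence is shown for 4 members, SCD and ACSS2, whose ratios after ATO were among the larger ones, and ELOVL5 and ELOVL6, the members with the lowest ratios in LNCaP and PC3, respectively. Each is the 250 bases before an annotated start, for ACSS2 the start of window 1 of 2 (RefSeq, GRCh38.p14), printed 5′ to 3′ on the strand of the gene. Capitals mark every match on either strand to the core of the sterol regulatory element (TCACNCCAC), the E box (CACGTG), the CCAAT box (CCAAT) or the GC box (GGGCGG), and no pair of these motifs overlapped in the 4 windows. The windows lie at chr10:100346983-100347232 (plus strand) for SCD, chr20:34874739-34874988 (plus strand) for ACSS2, chr6:53348951-53349200 (minus strand) for ELOVL5 and chr4:110198616-110198865 (minus strand) for ELOVL6.
SCD: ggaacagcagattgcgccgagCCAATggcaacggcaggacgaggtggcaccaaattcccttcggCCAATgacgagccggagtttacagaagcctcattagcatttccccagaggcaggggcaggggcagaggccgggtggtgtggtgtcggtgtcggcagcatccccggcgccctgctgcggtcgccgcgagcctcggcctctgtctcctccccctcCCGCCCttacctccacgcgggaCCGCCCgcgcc
ACSS2: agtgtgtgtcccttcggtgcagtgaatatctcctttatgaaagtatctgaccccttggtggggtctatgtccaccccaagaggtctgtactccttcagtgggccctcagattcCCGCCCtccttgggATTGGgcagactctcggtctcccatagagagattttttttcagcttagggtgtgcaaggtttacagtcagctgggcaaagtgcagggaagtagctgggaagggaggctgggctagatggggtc
ELOVL5: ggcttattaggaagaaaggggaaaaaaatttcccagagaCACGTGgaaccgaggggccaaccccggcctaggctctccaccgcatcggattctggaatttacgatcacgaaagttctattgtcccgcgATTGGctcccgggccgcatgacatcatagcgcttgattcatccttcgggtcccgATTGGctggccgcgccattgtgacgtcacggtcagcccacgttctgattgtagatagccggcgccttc
ELOVL6: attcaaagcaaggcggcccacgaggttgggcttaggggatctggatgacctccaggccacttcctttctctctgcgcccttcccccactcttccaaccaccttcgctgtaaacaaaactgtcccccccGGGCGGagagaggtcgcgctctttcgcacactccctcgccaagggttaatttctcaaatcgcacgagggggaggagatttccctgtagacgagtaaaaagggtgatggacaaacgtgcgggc

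The SCD window held 2 CCAAT boxes, 229 and 186 bases before the start, and 2 GC boxes close to the start. The ACSS2 window held 1 CCAAT box and 1 GC box, the ELOVL5 window 1 E box and 2 CCAAT boxes, and the ELOVL6 window only 1 GC box. The other ACSS2 window, not printed, held 3 GC boxes and 0 CCAAT boxes. RefSeq windows were matched for 9 of the 10 members, 16 windows in all, with up to 3 starts per gene, and FASN was the member with no window. The sterol regulatory element core was in 0 of these 16 windows, against 0.883% of 35116 windows of all genes. The CCAAT box was in 7 of the 16 (5 of the 9 members) against 32.0% of all windows, the GC box in 12 of the 16 (8 of the 9 members) against 42.6%, and the E box in 1 of the 16 against 6.34%. The shares of all genes are per window, so they do not compare with the counts of members, which can have several windows. Windows of 1 gene can also overlap, as the 2 of ACLY do, where the same boxes count in both. A match is a string of letters and not a shown binding site, and a window without a match says only that the letters are not in those 250 bases. FADS1 and FADS2 lie head to head on chromosome 11, with starts on opposite strands that are 599 or 800 bases apart, depending on the FADS2 start.

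All 4 arrays lay on 1 slide from 1 scan, and each held 43118 gene spots, none of them saturated, of which 48.5% to 52.9% were well above background. The 75th percentile of the probe intensities, by which arrays were scaled, was 497 and 534 units for LNCaP control and ATO and 590.3 and 569.5 units for PC3 control and ATO. Cell identity was checked with markers of each line. KLK3, KLK2 and FOLH1 were not well above background on either PC3 array, TMPRSS2 was 17.5-fold higher in LNCaP control than in PC3 control, and CAV1, CD44, VIM, ANXA1 and S100A4 were all higher in PC3 control, by 22.7-fold (S100A4) to at least 382-fold (CAV1). In LNCaP, VIM went from 65.3 to 138 units and S100A4 from 97.9 to 175 units with ATO, far below their PC3 levels, and CAV1 and CD44 were not well above background on either LNCaP array. In PC3, TMPRSS2 went from 392.3 to 770 units and CAV1 from 12387 to 5019 units. The part of these shifts in the results below was not tested. In RNA from whole cultures, fewer expressing cells and less RNA per cell cannot be told apart.

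In untreated cells most members had higher signal in LNCaP. On the log2 scale of scaled intensity, 8 of the 10 were lower in PC3 control and 2 higher, where 45.4% of all genes compared were higher. With a 2-fold limit 7 were lower in PC3 (19.0% of the 15237 genes compared were) and 0 were higher (20.6% of all genes), and the median log2 ratio of PC3 over LNCaP was -1.19 over the members against -0.05 over all genes. The 7 were ACACA (3.52-fold), ELOVL5 (2.62-fold), FADS2 (2.55-fold), FASN (2.52-fold), SCD (2.39-fold), ACLY (2.18-fold) and ELOVL6 (2.01-fold), and FADS1 was 1.44-fold lower. ACSS2 and LPIN1 differed by log2 ratios of 0.18 and 0.17, within 0.22, which is 2 SD of the log2 ratios of repeated spots of a probe. This count rested on the scaling. With spike-in probes as the reference, which raised the median of all genes by 0.42, only ACACA was still past 2-fold, and with the 50th percentile, which lowered that median by 0.44, ACSS2 and LPIN1 turned to log2 ratios of -0.26 and -0.27. The spots around the member spots had median log2 ratios of PC3 over LNCaP from -0.32 (FADS2) to -0.03 (ACLY). Centring on them left 6 members past 2-fold, without ELOVL6 (-0.91). ELOVL6 was at -0.60 with the median over its probes.

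**Figure D1:**
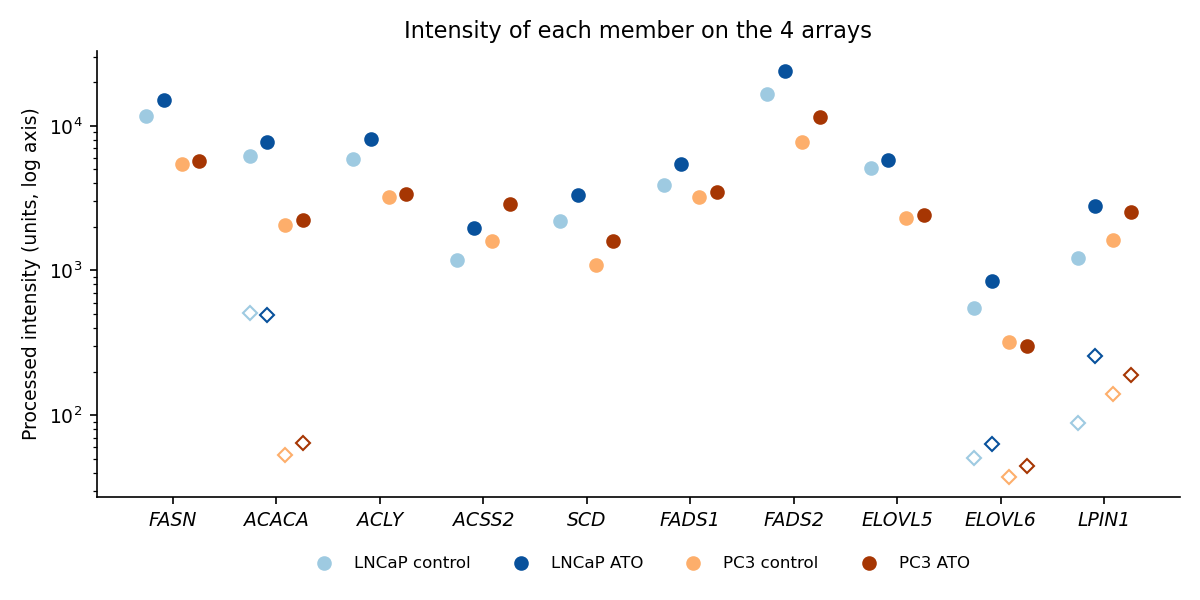
Processed intensity of every member (units, log axis) on the control and ATO arrays of LNCaP (blue) and PC3 (orange), 1 array per group and no error bars. Filled circles are the brightest probe of a gene and open diamonds the second probes of ACACA, ELOVL6 and LPIN1. Untreated levels of ACACA, ELOVL5, FADS2, FASN and SCD were higher in LNCaP, and ACSS2 and LPIN1 lay close together in the untreated lines.

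With ATO, all 10 members were higher in LNCaP (48.6% of all genes compared were) and 9 of the 10 in PC3 (49.1% of all genes), but few by much. The LNCaP ratios were above 0 for each of the 10 under all 11 ways of processing that kept the threshold, though a second probe of ACACA was not. For most members several of these ways returned the main value. A change was counted at 1.5-fold or more between ATO and control. In LNCaP 2 members passed it upward, ACSS2 and LPIN1, where 2.77% of the 13739 genes compared did, and 0 passed it downward, where 1.99% did. In PC3 4 members passed it upward, ACSS2, LPIN1, FADS2 and SCD, where 8.20% of the 13815 genes compared did, and 0 passed it downward, where 10.3% did. The median log2 ratio of ATO over control was 0.40 over the members in LNCaP against 0.00 over all genes, and 0.17 in PC3 against -0.01. The SD of repeated spots of a probe was 0.11 in LNCaP (617 probes) and 0.12 in PC3 (648 probes) on the log2 ratio. In LNCaP 9 members, all but ELOVL5, exceeded 2 such SD, and in PC3 4 did, while 21.4% and 48.8% of all genes did. That spread covers spots of 1 hybridization and not cultures. The median ratio of the spots around a member spot lay between -0.12 and 0.10 in both lines.

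**Figure D2:**
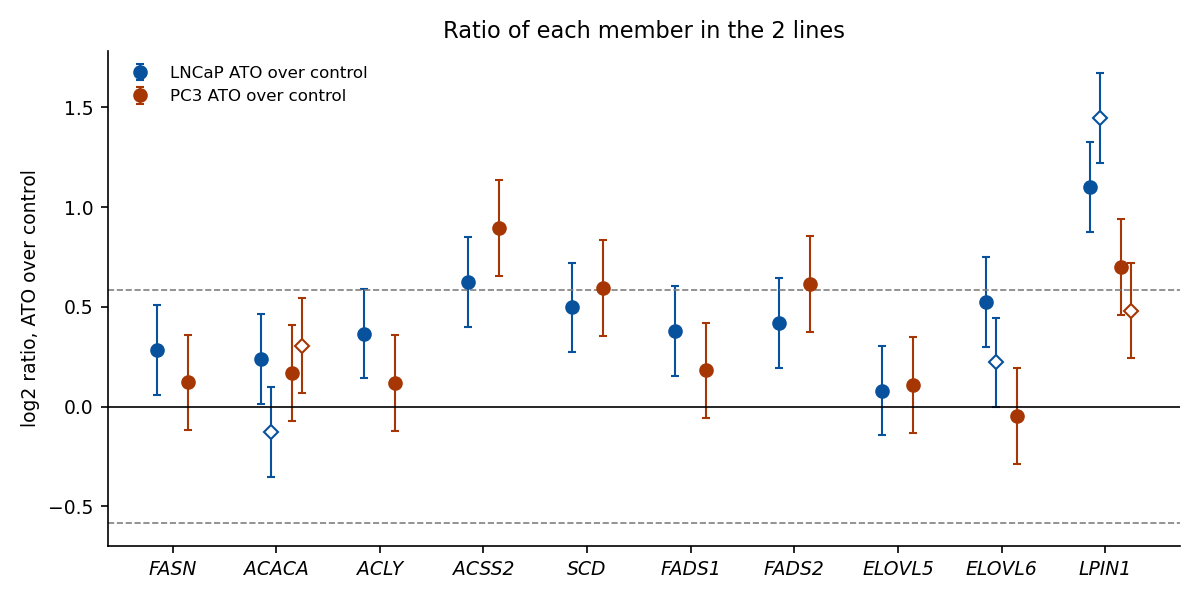
The log2 ratio of ATO over control for each member in LNCaP and PC3. Filled circles are the brightest probe and open diamonds the second probe where it was well above background, bars are 2 SD of repeated spots of a probe (0.22 in LNCaP and 0.24 in PC3, within 1 array pair), and dashed lines mark 1.5-fold. ACSS2 and LPIN1 lie above the line in both cell lines, FADS2 and SCD just above it in PC3, and ELOVL6 near 0 in PC3.

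The enzymes that supply acetyl-CoA differed from each other. ACSS2, the acetyl-CoA synthetase of cytosol and nucleus, gave 1185 units without and 1960 with ATO in LNCaP, and 1590 without and 2858 with ATO in PC3 (probe at chr20:32979004-32979062, hg18). Its ratios were 0.63 (1.54-fold) in LNCaP and 0.89 (1.86-fold) in PC3. It was the highest of the 10 ratios in PC3, at rank 311 of 12513 genes measured on both PC3 arrays, and rank 163 of 12236 in LNCaP. The ratio stayed past 1.5-fold in both lines under the 11 ways of processing, from 0.61 to 0.76 in LNCaP and from 0.73 to 1.09 in PC3. With 1 probe, several of these ways returned the main value. ACLY, the citrate lyase, gave 5883, 8128, 3199 and 3357 units in the same order of arrays (probe at chr17:37277494-37277553), or ratios of 0.37 and 0.12. Its LNCaP ratio exceeded 2 SD of repeated spots and its PC3 ratio did not. The ACLY spot on the PC3 control array had a local background of 209 units, above the limit of 120.1 set for bright surroundings on that array, so the PC3 and untreated-line values of ACLY are less certain, and with another background correction (normexp) the PC3 ratio was -0.00.

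The enzymes of chain synthesis had small ratios. ACACA, the carboxylase that commits acetyl-CoA to fatty acids, gave 6141, 7770, 2065 and 2243 units from its brighter probe (chr17:32516046-32516105), with ratios of 0.24 in LNCaP and 0.17 in PC3. The dimmer probe (chr17:32761350-32761409) gave 505, 495.2, 53.3 and 63.7 units, with ratios of -0.13 and 0.30. The probes thus disagreed in sign in LNCaP, and both gave a lower level in PC3 control, by log2 ratios of -1.82 and -3.49. FASN, the fatty acid synthase, gave 11602, 15125, 5445 and 5725 units (chr17:77629505-77629564), with ratios of 0.28 (1.22-fold) in LNCaP and 0.12 in PC3. No processing tried took ACACA, ACLY or FASN past 1.5-fold in either line.

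The 2 elongases gave different values from each other and between lines. ELOVL6, which lengthens palmitate, gave 547 units without and 843 with ATO in LNCaP, and 322 without and 301 with ATO in PC3, from its brighter probe (chr4:111190620-111190679). The ratio was 0.52 (1.44-fold) in LNCaP and -0.05 in PC3, the only ratio below 0 among the brightest probes of the members. It was above 0 in PC3 with the 50th percentile and with normexp. The second probe (chr4:111186875-111186934) was dim, at 50.1, 62.7, 37.6 and 44.3 units, was not well above background in PC3, and gave a ratio of 0.22 in LNCaP. ELOVL5, which lengthens polyunsaturated chains and is known as an androgen-responsive gene, gave 5139, 5823, 2321 and 2417 units (chr6:53240845-53240904). Its ratios of 0.08 and 0.11 were within 2 SD of repeated spots in both lines.

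The desaturases had ratios above 0 in both lines, of which those of FADS2 and SCD in PC3 passed 1.5-fold. FADS2, the first desaturase of the polyunsaturated pathway, gave 16681, 23919, 7735 and 11443 units (chr11:61391330-61391389), with ratios of 0.42 (1.34-fold) in LNCaP and 0.61 (1.53-fold) in PC3. FADS1, which acts later in that pathway, gave 3898, 5430, 3195 and 3504 units (chr11:61323702-61323761), with ratios of 0.38 (1.30-fold) and 0.18 (1.13-fold), the latter within 2 SD of repeated spots. SCD, the stearoyl-CoA desaturase, gave 2199, 3329, 1089 and 1589 units (chr10:102113907-102113966), with ratios of 0.50 (1.41-fold) and 0.59 (1.51-fold). FADS2 and SCD lay just past the 1.5-fold limit in PC3 and ranked 813th and 883rd of 12513 genes. They were past it there under 8 and 9 of 11 ways of processing, respectively. With 1 probe each, several of these ways returned the main value, such as the median over probes. FADS2 fell under the limit with the spike-in reference (0.51), normexp (0.51) and centring on nearby spots (0.56). SCD fell under it with the spike-in reference (0.49) and that centring (0.55). Both were under it in LNCaP, where SCD ranked 308th and FADS2 457th of 12236. ELOVL6, at 0.52, and SCD, at 0.50, were the members nearest below the limit in LNCaP, and ACSS2, at 0.63, was nearest above it.

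LPIN1 had the largest ratio in LNCaP. The gene encodes lipin 1, a phosphatidate phosphatase of glycerolipid synthesis that also acts as a transcriptional coactivator. Its brighter probe (chr2:11884558-11884617) gave 1214 units without and 2793 with ATO in LNCaP, and 1615 without and 2538 with ATO in PC3, so that both treated arrays lay above both untreated ones. The ratios were 1.10 (2.15-fold, rank 38 of 12236) in LNCaP and 0.70 (1.63-fold, rank 586 of 12513) in PC3. The second probe (chr2:11882329-11882388) gave 88.2, 258, 139 and 188 units, with ratios of 1.45 (2.73-fold) and 0.48 (1.40-fold), of which the PC3 value was under 1.5-fold. With the 75th percentile LPIN1 was the only member past 2-fold in either line. Its ratio of the brighter probe and of the median over probes ran from 0.99 to 1.27 in LNCaP and from 0.59 to 0.90 in PC3 over the 11 ways of processing.

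The lines were then fitted jointly, the only replication the design gives. With limma over all 4 arrays, cell line as a block and 1 residual degree of freedom, 0 of 11902 genes (0%) passed a Benjamini-Hochberg adjusted p of 0.05, and 0 of the 10 members did, with adjusted p from 0.762 to 0.842. At an unadjusted p under 0.05, 4 of the 10 members passed where 4.47% of all genes did. They were LPIN1 (mean log2 ratio 0.90, SE 0.17, adjusted p = 0.762), ACSS2 (0.76, SE 0.15), SCD (0.55, SE 0.13) and FADS2 (0.52, SE 0.14), each higher with ATO in 2 of 2 lines. Without the filter on dim probes 2 members passed, LPIN1 and ACSS2, and SCD and FADS2 did not. The p-values measure only the spread between these arrays, with the lines standing in as replicates.

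**Figure D3:**
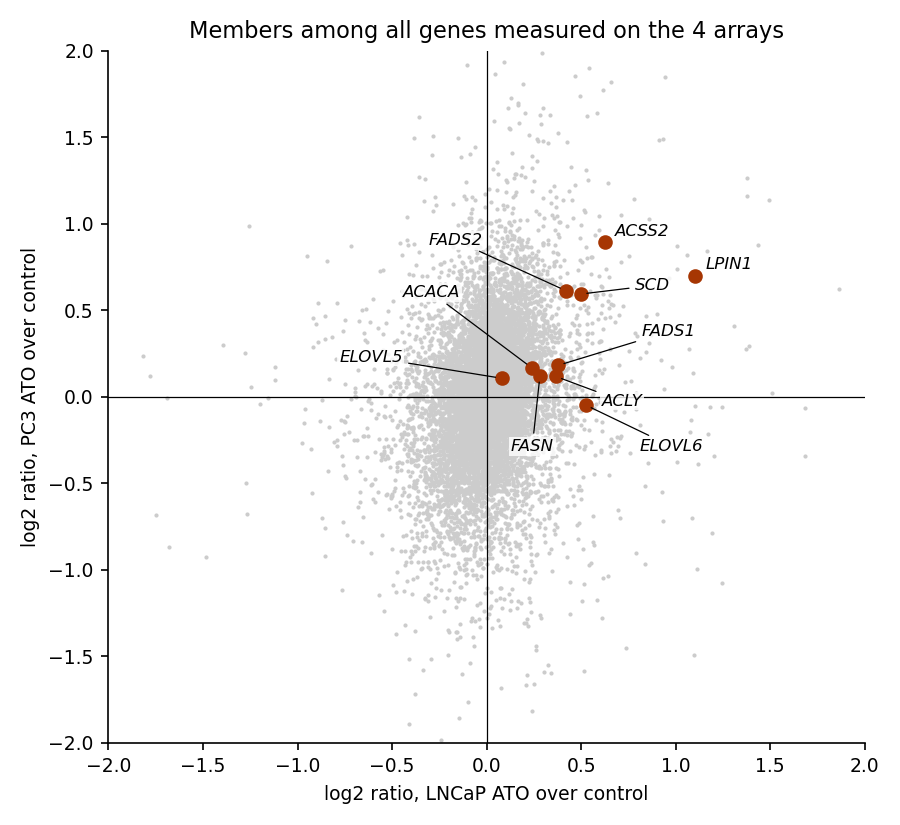
The log2 ratio of ATO over control in LNCaP (x axis) and PC3 (y axis) for 11016 genes well above background on all 4 arrays (grey, of which 18 lie outside the plotted range of -2 to 2) and the 10 members (red). ACSS2 and LPIN1 stand to the upper right, SCD and FADS2 come next, and ELOVL6 lies at 0.52 in LNCaP and -0.05 in PC3. Each point is 1 array against 1 array in each line.

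Differences between the 2 lines in these ratios were not tested, since each line has 1 array pair. By the brightest probes, the PC3 ratio minus the LNCaP ratio was lowest for ELOVL6 (-0.57) and LPIN1 (-0.40) and highest for ACSS2 (0.27) and FADS2 (0.19). The second probes of LPIN1 and ACACA gave -0.97 and 0.43. For ACSS2, ELOVL6 and LPIN1 the sign of this difference was the same under all 11 ways of processing, but that of ACSS2 shrank to 0.03 with the spike-in reference and 0.06 with normexp. The sign turned for other members. With the 50th percentile the difference went from -0.16 to 0.05 for FASN, from -0.07 to 0.14 for ACACA and from -0.20 to 0.01 for FADS1. With the spike-in reference it went from 0.19 to -0.05 for FADS2, from 0.10 to -0.14 for SCD and from 0.03 to -0.21 for ELOVL5.

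The other enzymes of fatty acid synthesis, elongation and desaturation, a list of 23 genes, had medians near 0. Of 16 with a value in LNCaP, 0 passed 1.5-fold in either direction (median log2 ratio 0.03), and of 20 in PC3, 2 passed it upward and 0 downward (median 0.02). The 2 were OXSM, the mitochondrial ketoacyl synthase, at 738 and 1140 units in PC3 control and ATO (1.60-fold), and ELOVL4, a very long chain elongase that was above background on the ATO array alone (at least 1.65-fold). ELOVL4, AGPAT4 and NFYA are named here after their values were seen.

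Genes that activate fatty acids and assemble glycerolipids, the next step for their products, gave a mixed picture. Of 16 with a value in LNCaP, 2 were past 1.5-fold upward and 0 downward. The 2 were LPIN2 (1.57-fold), a paralog of LPIN1, and ACSL1 (1.52-fold), an acyl-CoA synthetase. Both spots had bright surroundings on the LNCaP ATO array, and with such spots left out the count was 0 of 11. At any fold, 9 of the 16 were higher in LNCaP, and 10 of 18 with a value in PC3. In PC3 2 were past 1.5-fold upward, the acyltransferase AGPAT2 (1.74-fold) and the lipase PNPLA2 (1.55-fold), and 3 were past it downward. DGAT2, which makes triglyceride, went from 1255 to 617 units (log2 ratio -0.98), ACSL4 from 647.5 to 399.6 units (-0.65), and AGPAT4 was at least 5.37-fold lower. LPIN2 and ACSL1 had PC3 ratios of -0.28 and -0.03, with bright surroundings on the PC3 control array as well.

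Fatty acid oxidation, the opposite process, had 0 of 20 genes past 1.5-fold in LNCaP. In PC3 1 of 20 was past 1.5-fold downward, the mitochondrial dehydrogenase HADH (2252 to 1421 units, log2 ratio -0.62). The median log2 ratio of this list in PC3 was 0.17, the same to 2 decimals as that of the members, but 0.00 in LNCaP where that of the members was 0.40. At any fold, 16 of its 20 genes were higher with ATO in PC3 and 10 of 20 in LNCaP. Between untreated lines 15 of 20 were lower in PC3, 12 of them past 2-fold, and 3 were past 2-fold higher. The median there was -1.14, close to the -1.19 of the members.

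Among 23 regulators of lipid synthesis, 2 of 21 were past 1.5-fold upward in LNCaP, INSIG1 and SREBF2. In PC3 4 of 21 were past it upward and 2 downward. At any fold, 11 of 21 were higher in LNCaP and 14 of 21 in PC3. INSIG1, the sterol sensor that retains SREBP, went from 2317 to 6460 units in LNCaP (2.60-fold) and from 913 to 1973 units in PC3 (2.23-fold). SREBF2, whose product drives mainly cholesterol genes, went from 1695 to 2842 units (1.56-fold) and from 427 to 668 units (1.62-fold), the last of these on a spot with bright surroundings. SREBF1, whose product drives mainly fatty acid genes, had ratios of -0.00 in LNCaP and 0.10 in PC3 (a second probe gave -0.23 and 0.21), and its untreated level was lower in PC3 by a log2 ratio of -2.44. The other genes past 1.5-fold upward in PC3 were NFYA (1.56-fold) and the kinase subunit PRKAA2 (1.66-fold), at 64.8 and 104 units. Those past it downward were NFYB (log2 ratio -0.76) and the coactivator PPARGC1B (-1.39, on a spot with bright surroundings in PC3 ATO). NFYA and NFYB are subunits of the factor that binds the CCAAT box, which is printed in capitals above for SCD, ELOVL5 and 1 of the 2 starts of ACSS2. A link between these subunits and the ratios of the members was not tested.

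Cholesterol biosynthesis, the pathway that ATO blocks, had the highest medians of the 6 lists. Of 20 of its enzymes with a value in LNCaP, 14 were past 1.5-fold upward and 0 downward (median log2 ratio 0.72), and of 21 in PC3, 10 upward and 0 downward (median 0.53). HMGCS1, which makes HMG-CoA, was 3.64-fold higher in LNCaP and 1.54-fold in PC3, and SQLE, the squalene epoxidase, 2.24-fold and 1.79-fold. The HMGCS1 spot had bright surroundings on the PC3 ATO array, and with such spots left out 5 of 13 enzymes were past 1.5-fold in PC3. LPIN1, at 1.10, lay among the higher of these ratios in LNCaP, and the other 9 members lay below the cholesterol median there. In PC3, ACSS2 (0.89), LPIN1 (0.70), FADS2 (0.61) and SCD (0.59) lay above the cholesterol median of 0.53, and the other members below it.

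**Figure D4:**
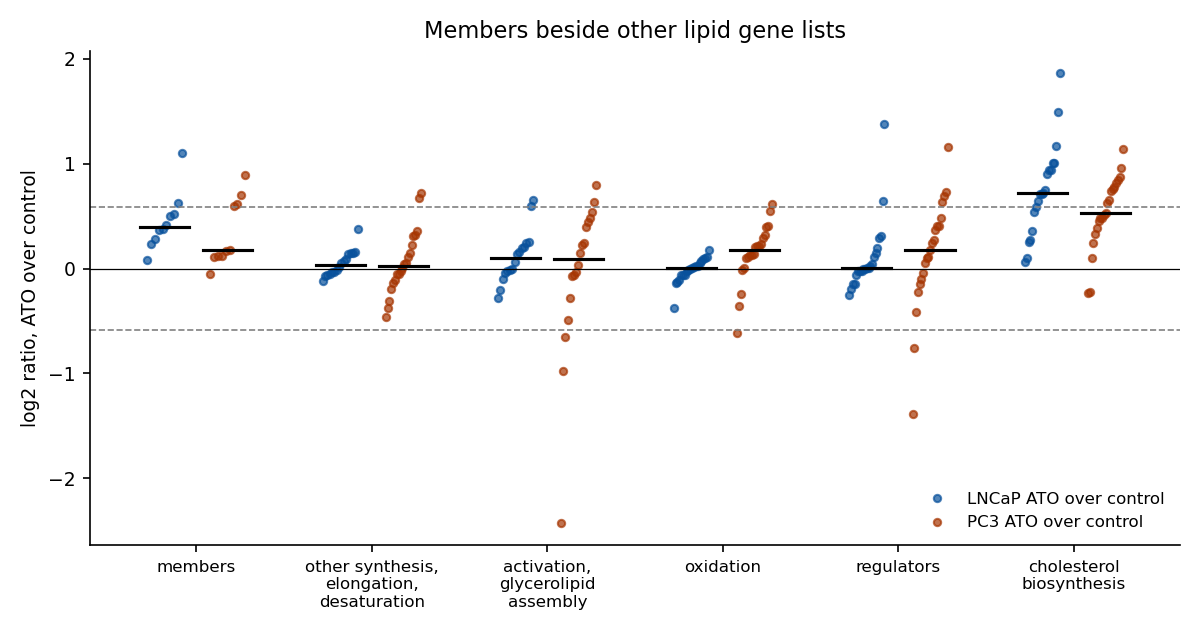
The log2 ratio of ATO over control for each gene of 6 lists in LNCaP and PC3, with the median of each list as a black bar and 1.5-fold as dashed lines. Points include lower bounds for genes above background on 1 array of a pair, such as AGPAT4 at -2.42 in PC3. The medians of the members (0.40 and 0.17) lie between those of the other synthesis enzymes (0.03 and 0.02) and of cholesterol biosynthesis (0.72 and 0.53).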

How the data were processed

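Expression was measured on 4 1-colour Agilent arrays, 1 for each of 4 groups taken from the sample labels. Spots were quantified with the software Agilent Feature Extraction 9.5.3.1. The deposited spot intensity is on a linear scale with a fitted background subtracted and a spatial trend removed, per the file headers. The deposited table holds a ratio, found here to be the intensity over the array's 75th percentile with a floor of 0.03 (100% of probes with 1 spot and a ratio above 1 were within 2%), and served as an alternative. The scaling and test behind the study's own gene calls are not given in the sources used here.

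For this report, log2 intensity was averaged over spots without an outlier call and each array's 75th percentile of probe values was subtracted. The brightest probe stood for a gene. A probe needed the call of well above background on over 50% of its spots. Where that failed on 1 array of a pair, a bound ("at least") was formed with the larger of 2 values on the dim array, that of the probe and the lowest one with the call. Thresholds were 1.5-fold within a line and 2-fold between untreated lines. Repeated spots came from probes with at least 5 copies. The limma 3.58.1 fit (R 4.3.3, lmFit and eBayes, two-sided, Benjamini-Hochberg over all genes tested) was tested on simulated data. Promoter windows came from RefSeq (GRCh38.p14), and probe coordinates are hg18 as in the files, with no exon annotation of that build used. Symbols of 10 of 10 members matched RefSeq.

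The members and lists were chosen with earlier results of these data known. The text names all members, up to 5 genes per other list and line with the largest ratios past 1.5-fold for probes with the call on both arrays, and SREBF1, SREBF2, INSIG1 and HMGCS1. Some genes and markers that this rule covers are not reported here. Alternatives were the 50th percentile, quantile normalization, spike-in probes, normexp (offset 50), the deposited table, no filter, the median over probes, outlier spots kept, spots in bright surroundings (over 3 scaled MAD) left out, and stricter folds. Centring on nearby spots was added after seeing the data.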

Additional observations from a re-analysis of the deposited data

Results flagged for a closer look

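ELOVL6 was higher with ATO on the LNCaP array (log2 ratio 0.52) and lower on the PC3 array (-0.05), with a PC3 minus LNCaP difference of -0.57. By the brightest probes it was the only member whose ratios had opposite signs. The second ACACA probe also had opposite signs, -0.13 in LNCaP and 0.30 in PC3. The difference was not tested, because each line has 1 pair of arrays, and the PC3 ratio was within 2 SD of repeated spots (0.24). With the 50th percentile the difference was -0.36 and with the spike-in reference -0.81. The PC3 ratio of ELOVL6 was above 0 with the 50th percentile (0.15) and with normexp (0.05). The second ELOVL6 probe gave 0.22 in LNCaP and had no usable PC3 signal.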

How the results depend on the processing

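Leaving out a replicate was not possible with 1 array per group. For the same reason no paired analysis was possible within a line, and the only pairing is that of ATO with control by cell line in the limma fit. No ratio past its threshold changed sign. Of the alternatives to the counts and medians, 56 gave a count within 1.5 times or a median within 1 SD of repeated spots and 11 did not, with the cause not tested beyond the change of reference or threshold itself. With the spike-in reference, 4 members were past 1.5-fold in LNCaP (ACSS2, SCD, ELOVL6 and LPIN1), 2 in PC3, and 1 past 2-fold between untreated lines, and the median was 0.53 in LNCaP and 0.07 in PC3. With normexp 3 members were past 1.5-fold in PC3 and 5 past 2-fold between untreated lines. The spike-in reference moved the median of all genes by 0.13 (LNCaP) and -0.11 (PC3). The 50th percentile gave a PC3 median of 0.37, with all genes shifted by 0.19. It also gave larger upward PC3 counts past 1.5-fold on other lists (6 higher and 2 lower for activation and glycerolipid assembly, 4 and 0 for oxidation, 7 and 1 for regulators, 15 and 0 for cholesterol). With centring on nearby spots 2 members were past 1.5-fold in PC3 (ACSS2 and LPIN1). At 2-fold the counts were 1 in LNCaP (LPIN1) and 0 in PC3, and at 4-fold 0 between untreated lines. Genes passing limma numbered 5 with the 50th percentile and 2 with the spike-in reference, none of them members. Among single members, 61 alternative values moved by more than the spread of repeated spots and 237 did not, while ACSS2 and LPIN1 stayed past 1.5-fold in both lines under all 11 ways of processing. The 11 ways include the main one and are not independent. Leaving out the filter returned the main value for every member, and the median over probes did so for the 7 with 1 probe. The deposited table uses the same percentile. Counts of unchanged values include these. Signal limits the second probes of ELOVL6 and LPIN1 and that of ACACA in PC3, all under 300 units there.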
